A study of Mus musculus with 12 samples.

Results

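Genes of the NF-κB system were followed in cultured mouse oligodendrocyte precursor cells (OPCs). They were chosen by name and comprise the 5 subunits Nfkb1, Nfkb2, Rela, Relb and Rel, and the 5 inhibitors or modulators Nfkbia, Nfkbie, Nfkbiz, Tnfaip3 and Bcl3. These are 10 of the 55536 genes in the tables, and all 10 reached at least 10 reads in at least 4 libraries, the filter for a test. Bcl3 passed only through the IFNγ libraries, so a difference from the other groups was built into its passing.

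NF-κB is a family of dimeric transcription factors that rest in the cytoplasm, bound by IκB proteins. Signals from tumour necrosis factor, interleukin-1 or Toll-like receptors activate the IκB kinase (IKK), which marks IκB for destruction and frees the dimer to enter the nucleus. Several inhibitors are themselves target genes of NF-κB, so that their RNA is often read as a trace of its activity, although RNA does not measure where the subunits are in the cell. Glucocorticoids restrain inflammatory NF-κB output in many cell types and can raise IκBα, and the interferon-γ pathway shares many inflammatory target genes with NF-κB.

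Sox10-GFP+ OPCs came from pooled brains of pups aged postnatal day 4 to 6, in which a Sox10-driven Cre switches on GFP throughout the oligodendrocyte lineage, and were taken by flow sorting for GFP or with CD140a beads. Every group was grown with the growth factors PDGF-AA and bFGF. The groups were untreated Ctr-OPCs (4 libraries), OPCs given 1 µM dexamethasone (Dexa, a synthetic glucocorticoid) for 48 h (4 libraries) and OPCs given 100 ng/ml IFNγ for 48 h (4 libraries). The replicates came from different litters. Libraries of different groups with the same replicate number tended to deviate together (r = 0.414 to 0.746), but the range of other pairs (-0.646 to 0.526) overlapped theirs. The labels carry an EAE model tag (experimental autoimmune encephalomyelitis, a mouse disease model), but the cells described are cultures from pups.

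The table of Dexa replicate 3 is cut off and lists only 3 of the 10 genes whole (Rel, Nfkbia and Tnfaip3), so it was left out of the main fit, which held 11 libraries of 19209063 to 52074652 reads. All 8 OPC markers were present in every group, with a summed level of 800 to 1473 TPM (transcripts per 1000000 transcripts, a level per length) in Ctr, 962 to 1515 in Dexa and 685 to 1382 in IFNγ libraries. Under IFNγ their median log2 fold change was -0.50, with 1 called lower (C1ql1), and -0.58 with 5 of 8 called lower when the replicate number was a block (DESeq2). The 6 oligodendrocyte markers summed to a median of 27.3 TPM (8.49 to 38.7) in Ctr and 49.8 (12.7 to 63.2) in Dexa libraries. In IFNγ libraries the median was 8.03 (6.54 to 48.7), and the ranges overlapped. None was called in DESeq2 without the block, and with it 2 were called lower in IFNγ against Dexa. Of 11 microglia markers 3 passed the filter, with summed levels of 3.04 to 4.66, 3.64 to 4.67 and 4.18 to 6.49 TPM in the same order, and Cx3cr1 had no read in Dexa libraries. Against Ctr the 3 that passed were all higher in both treatments, with median log2 fold changes of 0.22 (IFNγ) and 0.07 (Dexa), and none was called (DESeq2). The 6 astrocyte markers summed to 75.5 to 196, 188 to 327 and 188 to 297 TPM, and both treated groups overlapped only the upper end of the Ctr range. Not all of them moved with the sum: in IFNγ against Ctr 2 were called higher (DESeq2), and with the block 3 higher and 2 lower. In Dexa against Ctr none was called without the block, and 2 were called higher with it. The part of these cells in the results was not tested, and in bulk RNA fewer cells of a type cannot be told apart from less RNA per cell. Gbp2, an interferon-induced GTPase, rose in IFNγ-treated OPCs (log2 fold change 10.16 ± 0.12, SE), and Fkbp5, a glucocorticoid target, averaged 4006 ± 636 normalized counts in Dexa against 1444 ± 254 in Ctr libraries (SD, n = 3 and 4).

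The promoters of the inhibitors are where NF-κB is classically known to act back on its own pathway, so sequences of theirs are shown before the values. That of the subunit Rel is shown beside them. RefSeq windows (GRCm38.p6, 250 bases before to 50 after a start site) were held for 7 of the 10 genes, which have 10 windows in all, and none was held for Nfkb1, Relb or Nfkbiz. The lines give 130 bases before and 12 from the start site of Rel, Nfkbia, Nfkbie, the upstream of the Tnfaip3 start sites, and Bcl3. Every match to the κB consensus is in capitals, and each line shown holds at least 1. The windows of Nfkb2 and Rela and the downstream Tnfaip3 window are not shown.
Rel, chr11:23770958-23771099, minus strand: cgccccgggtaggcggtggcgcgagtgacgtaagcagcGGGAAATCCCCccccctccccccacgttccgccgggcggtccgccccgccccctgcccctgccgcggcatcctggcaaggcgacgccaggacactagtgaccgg
Nfkbia, chr12:55492636-55492777, minus strand: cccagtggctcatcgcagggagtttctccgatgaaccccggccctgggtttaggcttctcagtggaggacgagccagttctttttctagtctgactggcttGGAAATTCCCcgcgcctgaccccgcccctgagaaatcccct
Nfkbie, chr17:45555570-45555711, plus strand: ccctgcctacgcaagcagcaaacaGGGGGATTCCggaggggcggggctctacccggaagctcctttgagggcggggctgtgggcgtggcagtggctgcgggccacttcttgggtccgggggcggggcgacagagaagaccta
Tnfaip3, chr10:19015399-19015540, minus strand: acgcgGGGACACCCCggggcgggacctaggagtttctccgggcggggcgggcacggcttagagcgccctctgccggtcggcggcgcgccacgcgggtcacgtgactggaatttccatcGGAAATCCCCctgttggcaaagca
Bcl3, chr7:19822744-19822885, minus strand: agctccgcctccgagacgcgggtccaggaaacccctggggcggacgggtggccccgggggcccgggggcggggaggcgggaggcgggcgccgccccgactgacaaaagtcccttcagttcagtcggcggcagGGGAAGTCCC

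A κB consensus match on either strand was found in 8 of the 10 windows, those of 6 of the 7 genes, while 4.51% of all 32851 mouse windows held one. Rela had none, and one match of Nfkb2 lies in a stretch shared by 2 of its windows. The match in Nfkbia, GGAAATTCCC, lay from -29 to -20 of the start site, and that in Bcl3, GGGAAGTCCC, just inside the transcribed sequence from 3 to 12. Rel held GGGAAATCCC, which overlaps a second match shifted by 1 base, and the upstream Tnfaip3 window held GGGACACCCC and GGAAATCCCC. The downstream Tnfaip3 window held none. Nfkb2 had κB matches in each of its 3 windows. A match is only a run of letters, and its absence from a short window says nothing of the factor.

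Per length, the subunit pool of these OPCs was mostly Rela and Nfkb1, which together form the classical p65-p50 dimer (p50 is cut from the Nfkb1 product p105). In Ctr-OPCs Nfkbia, which encodes the main inhibitor IκBα, stood at 9.57 ± 2.32 TPM, Rela at 8.92 ± 0.916 and Nfkb1 at 8.06 ± 0.464 (SD, n = 4), and these neighbours overlapped. Nfkbie (IκBε) at 1.70, Nfkb2 at 1.34, Nfkbiz at 1.31 and Relb at 1.28 TPM formed a second tier that also overlapped within itself. Rel at 0.350 and Tnfaip3 at 0.309 TPM were lower still, and Bcl3, at 0.00884 TPM, was nearly absent. The range over libraries left a gap below Nfkb1, below Relb and below Tnfaip3. Nfkb1 and Rela together held 85.2% ± 3.72 of the summed TPM of the 5 subunits in Ctr, 84.6% ± 3.90 in Dexa and 84.6% ± 3.26 in IFNγ libraries (SD, n = 4, 3 and 4), so this make-up was alike to within its spread.

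The place of Nfkbia at the top depends on its transcripts. The retained-intron transcript Nfkbia-202 held 60.2% of the gene's TPM in Ctr libraries but 35.5% of its reads, and with protein-coding transcripts only the Ctr order became Rela at 7.13, Nfkb1 at 5.25 and Nfkbia at 3.75 TPM. In IFNγ-treated OPCs the lower tiers were rearranged: Tnfaip3 stood at 0.880 and Bcl3 at 0.407 TPM, both above Rel at 0.400, although Bcl3 and Rel overlapped. From Nfkbie down to Rel every gene of that group overlapped its neighbour. With protein-coding transcripts only, Bcl3 averaged 0.237 TPM, below Rel, and Tnfaip3 averaged 0.715, above Rel but overlapping it. In Dexa-treated OPCs Nfkbia stood at 13.2 ± 1.76 TPM (n = 4), above every library of Rela, which averaged 9.10. With protein-coding transcripts only, Nfkbia stood at 5.02 TPM in the 3 full Dexa libraries, below Rela at 7.12 and Nfkb1 at 5.67.

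**Figure D1:**
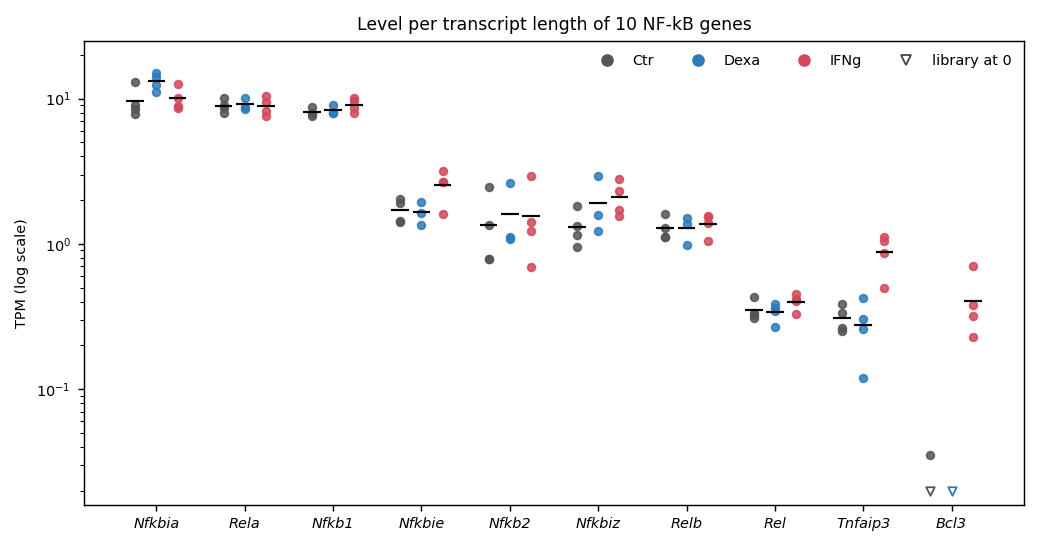
Level of each of the 10 genes in TPM (log scale) in the Ctr, Dexa and IFNγ libraries. Points are libraries, bars are group means and open triangles are libraries at 0. Nfkbia, Rela and Nfkb1 form the top tier in each group, and Bcl3 has its points near 0.4 TPM in the IFNγ libraries alone.

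The subunit genes did not pass the test in any comparison. Nfkb1 ranged from 1114 to 1222 normalized counts in the 4 Ctr libraries, from 1153 to 1303 in the 3 Dexa libraries and from 1116 to 1209 in the 4 IFNγ libraries. Its log2 fold change in IFNγ-treated OPCs was 0.00, with a 95% interval of -0.13 to 0.14 (DESeq2, adjusted p = 0.987), the tightest bound among the subunits. Rela, which carries the main activation domain, averaged 1020 ± 50.9 in Ctr and 953 ± 94.3 in IFNγ libraries, a log2 fold change of -0.10 (-0.30 to 0.10). The dimer partners Relb (-0.06, -0.44 to 0.31) and Rel (0.01, -0.28 to 0.31) were bounded less tightly at their lower counts.

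Nfkb2, whose product p100 is cut to p52 in the non-canonical branch, varied more between replicate numbers than between treatments. Its normalized counts were 443, 200, 130 and 139 in Ctr replicates 1 to 4, 434, 184 and 187 in Dexa replicates 1, 2 and 4, and 413, 189, 117 and 167 in IFNγ replicates 1 to 4. Replicate 1 was highest in every group by a wide margin. Within numbers 1 to 3 the treated libraries lay within 0.16 of Ctr on the log2 scale, and in number 4 they were higher by 0.42 (Dexa) and 0.26 (IFNγ). The IFNγ log2 fold change of -0.04 had an interval of -1.03 to 0.94 without the replicate number in the fit and of -0.30 to 0.23 with it as a block. Nfkb2 overlaps Psd and a long non-coding RNA on the opposite strand, and whether reads were counted by strand is not given in the sources used here.

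The question put to the IFNγ comparison was which of these genes change when OPCs meet this cytokine. Of the 10 genes 2 passed the test in IFNγ-treated against Ctr-OPCs, both higher, where 8.02% of the 17919 genes tested were called higher and 12.8% in either direction (DESeq2, adjusted p under 0.05). They were Tnfaip3, encoding the ubiquitin-editing enzyme A20 that shuts down signalling to IKK, and Bcl3, a nuclear IκB that works on p50 and p52 dimers. Since Bcl3 passed the filter only through the IFNγ libraries, its call was partly set by the filter, and over the other 9 genes 1 was called.

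Tnfaip3 had 57.8, 55.1, 60.6 and 80.4 normalized counts in Ctr replicates 1 to 4 and 210, 152, 121 and 164 in IFNγ replicates 1 to 4. All 4 IFNγ libraries lay above all 4 Ctr libraries, as 8.66% of the genes tested did. The rise was 2.56-fold, a log2 fold change of 1.36 ± 0.32 (SE, 95% interval 0.72 to 1.99; DESeq2, adjusted p = 0.000474). By replicate number the log2 difference was 1.84, 1.45, 0.99 and 1.02, so that each number moved the same way. The call held in edgeR (adjusted p = 0.0276, with 8.47% of all genes called) and without any single library, but without replicate number 2 in all groups DESeq2 gave an adjusted p of 0.061 with no block and 0.00493 with it.

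Bcl3 had 0, 0, 0 and 1 reads in Ctr replicates 1 to 4, none in the 3 Dexa libraries, and 20, 17, 12 and 14 in IFNγ replicates 1 to 4. A count of 0 allows up to 3 reads in a library, so Bcl3 was at the limit of detection outside IFNγ. Scaled for depth, 63 reads against 1 is a ratio of 86.4, with a 95% interval of 14.7 to 3411 that covers counting error only (DESeq2, adjusted p = 1.03e-06; edgeR, adjusted p = 0.000536). With the block the call was lost without replicate number 4 in all groups (DESeq2, adjusted p = 0.219), and it held without each other number and, with no block, without any. Antisense genes overlap Bcl3, Gm16174 with a mean of 5.14 normalized counts and Gm16175 with none.

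Over all 11 libraries Nfkbiz and Nfkbie were not called without a block, and were called with replicate number as a block. With the block 4 of the 10 genes were called, all higher, against 15.2% of all genes called higher and 29.2% in either direction (DESeq2), and edgeR with the block called the same 4, with 31.2% of all genes called. Nfkbiz encodes IκBζ, a nuclear IκB that promotes a subset of NF-κB target genes. It had 370, 228, 167 and 216 normalized counts in Ctr replicates 1 to 4 and 461, 340, 300 and 281 in IFNγ replicates 1 to 4. The groups overlapped because replicate 1 was the highest in both. Each IFNγ library was above the Ctr library of its own replicate number, by 0.32, 0.57, 0.84 and 0.38 on the log2 scale. Its log2 fold change was 0.50 ± 0.32 without the block (DESeq2, adjusted p = 0.395) and 0.53 with it (adjusted p = 0.00071), and with the block it was called whichever replicate number was left out (adjusted p = 0.00145 to 0.0416). Without replicate 1 it was called with no block as well (DESeq2, adjusted p = 0.0212).

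Nfkbie, a cytoplasmic IκB, had 195, 168, 225 and 267 normalized counts in Ctr replicates 1 to 4 and 180, 261, 339 and 344 in IFNγ replicates 1 to 4. It was higher in 3 of 4 replicate numbers and slightly lower in replicate 1. The log2 fold change was 0.40 ± 0.24 (DESeq2, adjusted p = 0.353) and 0.38 with the block (adjusted p = 0.0432), and the blocked call was lost without replicate 2, 3 or 4 (adjusted p = 0.174 to 0.344).

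Nfkbia, the best known target and inhibitor of NF-κB, was not called under IFNγ with or without the block. Its normalized counts were 455, 525, 345 and 412 in Ctr replicates 1 to 4 and 404, 416, 368 and 334 in IFNγ replicates 1 to 4, with overlapping ranges. The log2 fold change was -0.19 ± 0.16 (DESeq2, adjusted p = 0.537), and it was 0.08 when TPM was compared instead of counts, a scale on which the median of all genes was 0.11.

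**Figure D2:**
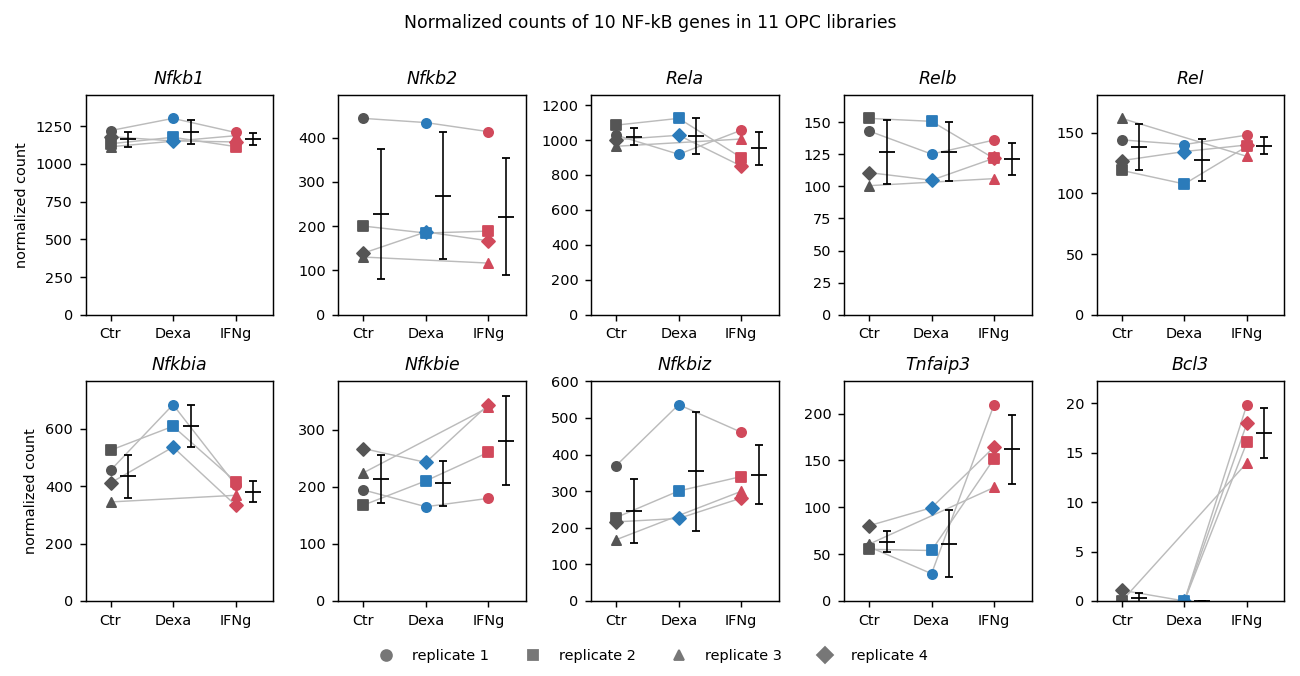
Normalized counts of the 10 genes, one panel each, in Ctr, Dexa and IFNγ libraries. Marker shapes give the replicate number, grey lines join libraries of the same number, and black marks show the mean ± SD. The lines of Tnfaip3 and Bcl3 rise to IFNγ in every replicate number. Those of Nfkbia peak in Dexa in replicates 1, 2 and 4, and replicate 3 has no Dexa point. Replicate 1 of Nfkb2 sits far above the other replicates throughout.

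The Dexa comparison asked which genes of the system a glucocorticoid changes in OPCs. None of the 10 genes passed DESeq2 or edgeR without the block, where 0.547% and 0.128% of all genes were called, and 1 of the 10 was at an unadjusted p under 0.05 in DESeq2, as were 3.58% of all genes. That gene was Nfkbia, with 684, 609 and 536 normalized counts in Dexa replicates 1, 2 and 4 against the 345 to 525 of Ctr. All 3 Dexa libraries lay above all 4 Ctr libraries, as 2.58% of genes did, and the log2 fold change was 0.49 ± 0.17 (DESeq2, adjusted p = 0.312).

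With the replicate block Nfkbia was called at 0.43 (DESeq2, adjusted p = 0.0223, with 2.57% of all genes called), though not in edgeR with the block (adjusted p = 0.0640, with 1.7% called). The blocked DESeq2 call was lost when any of the replicate numbers was left out (adjusted p = 0.0712 to 0.636), and without the block it appeared when Ctr replicate 2 was left out (0.60, adjusted p = 0.0466). Nfkbia is listed whole in Dexa replicate 3, so all 12 libraries could be compared over the 6319 genes tested there. On that scale Ctr replicates 1 to 4 had 430.5, 496, 326 and 388 normalized counts and Dexa replicates 1 to 4 had 645, 575, 494 and 505. Each Dexa library was above the Ctr library of the same number, by 0.21 to 0.60 on the log2 scale. Still, the ranges touched, since Dexa replicate 3 fell just below Ctr replicate 2. The 12-library log2 fold change was 0.44 ± 0.15 (DESeq2, adjusted p = 0.405, with 0.364% of genes called). With the block the call was made by DESeq2 (adjusted p = 0.00182, with 3.59% called) and edgeR (adjusted p = 0.0271, with 1.99% called).

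Nfkbiz had 536, 301 and 225 normalized counts in Dexa replicates 1, 2 and 4. Each was above the Ctr library of the same number, by 0.53, 0.40 and 0.06 on the log2 scale. The log2 fold change of 0.53 did not pass without the block (DESeq2, adjusted p = 1) or with it (0.40, adjusted p = 0.189). Tnfaip3 had 29.1, 53.9 and 99.6 normalized counts in Dexa replicates 1, 2 and 4, on both sides of the Ctr range, and Dexa replicate 3 had 58.9 on the 12-library scale. Bcl3, with 1 read over both groups, gives no fold here.

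Set against each other, the treatments differed at 3 of the 10 genes, where 13.1% of all genes were called (DESeq2, IFNγ against Dexa). The comparison shares its IFNγ and Dexa libraries with those above, so it is no separate evidence. Nfkbia was lower under IFNγ, with every IFNγ library below every Dexa library, as 8.77% of genes were, and a log2 fold change of -0.68 ± 0.17 (DESeq2, adjusted p = 0.000862; edgeR, adjusted p = 0.0194, with 8.75% of genes called), but limma on TPM gave -0.46 and no call (adjusted p = 0.165). Tnfaip3 was higher without overlap, as 11.2% of genes were, by 1.44 ± 0.36 (DESeq2, adjusted p = 0.000872). Without replicate number 2 in all groups that call was lost with no block (DESeq2, adjusted p = 0.109) and held with it (adjusted p = 0.00386). Bcl3 was at least 15.2-fold higher, against a floor of 3 reads over the Dexa group (DESeq2, adjusted p = 1.65e-05). With the block and without replicate number 1, 2 or 4 in all groups, DESeq2 gave Bcl3 no adjusted p and so no call. The unadjusted p was 0.000531, 0.000628 and 0.151 in that order (DESeq2). It passed the filter only through the IFNγ libraries, so its call and its place among the 3 were partly set by the filter. Between the treated groups Nfkbia and Tnfaip3 thus fell on opposite sides, Nfkbia higher in Dexa and Tnfaip3 higher in IFNγ libraries.

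**Figure D3:**
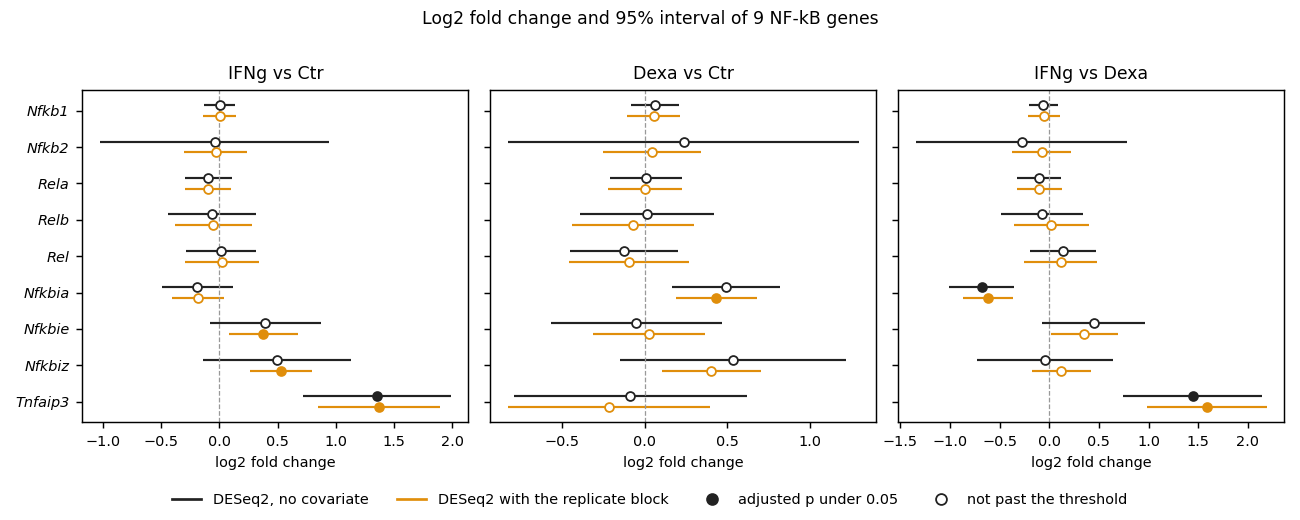
Log2 fold changes of 9 genes (Bcl3 is left out because Ctr and Dexa are at or near 0) in the 3 comparisons, from DESeq2 without a covariate (black) and with the replicate block (orange). Lines are 95% intervals and filled points have an adjusted p under 0.05. Nfkb1 and Rela sit near 0 with short lines, Tnfaip3 is filled against both Ctr and Dexa, and the lines of Nfkb2 and Nfkbiz shorten with the block.

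Transcript estimates add where the reads of the inhibitors fell. Of Nfkbia reads 64.5% went to the coding transcript Nfkbia-201 in Ctr libraries, and of Nfkbiz reads 65.0% to Nfkbiz-204 and 32.8% to Nfkbiz-203. Tnfaip3-201, which begins at the upstream start site whose sequence is given above, was credited with 58.6 reads in Ctr replicate 1 and none in the other 3 Ctr or the Dexa libraries. In IFNγ replicates 1 to 4 it was credited with 74.1, 71.9, 32.1 and 24.1 reads. Tnfaip3-202, from the downstream site with no κB match, held 0, 72.7, 68.8 and 67.3 reads in Ctr replicates 1 to 4 and 102, 50.8, 49.4 and 92.0 in IFNγ replicates 1 to 4. The split between these transcripts swung from none to nearly all between libraries of the same group, so no shift between start sites can be read from it. Bcl3-201 held 72.9% ± 12.4 of the few Bcl3 reads in IFNγ libraries (SD, n = 4).

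The genes most like Bcl3 over the 11 libraries were Tnfsf10 (Pearson r = 0.996), which encodes the death ligand TRAIL, Psme1 (0.993), a proteasome activator subunit, and H2-DMa (0.992), of class II antigen presentation. Those most like Tnfaip3 were Plcxd3 (0.959), Nbas (0.952) and Lonrf1 (0.946), and those most like Nfkbiz were Msi2 (0.967), Pxmp4 (0.966) and Cachd1 (0.963). The libraries share replicate numbers and treatments, so these values only describe likeness.

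The rest of the pathway was read from lists of its parts. In IFNγ against Ctr 8.02% of all genes tested were called higher and 12.8% in either direction (DESeq2). With the block these shares were 15.2% and 29.2%, and edgeR without it called 8.47% in either direction. The list counts below stand against these shares. Among receptors 8 of 10 genes were tested in IFNγ against Ctr and 5 were called, all higher. Of these 3 passed the filter only through the IFNγ libraries, where they are high, and over the other 5 receptors 2 were called, with a median log2 fold change of 0.51 against -0.02 over all genes. With the block 4 of these 5 were called, all higher. Tlr3, the receptor for double-stranded RNA, stood at 152 ± 105 normalized counts in Ctr and 1778 ± 311 in IFNγ libraries (SD, n = 4), a log2 fold change of 3.55 ± 0.47 (DESeq2, adjusted p = 3.53e-12). Tnfrsf1b (4.55), the second TNF receptor, Tlr2 (2.90) and Tlr4 (2.59), for bacterial lipids, rose as well, and are the 3 that passed only through the IFNγ libraries. Il1rap, the shared chain of the interleukin-1 receptor, was at 0.34 (DESeq2, adjusted p = 0.637) and was called with the block (adjusted p = 1.16e-05). Of 8 ligands, among them Tnf, Il1a, Il1b and Lta, 7 were under the filter, and Tnfsf13b, the B-cell factor BAFF, was called higher (3.03) but passed only through the IFNγ libraries.

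Among adaptors 4 of 11 were called, all higher, with a median of 0.14. They were Birc3 (2.06) and Birc2 (0.41), the ubiquitin ligases cIAP2 and cIAP1, Myd88 (1.74), the adaptor of Toll-like and interleukin-1 receptors, and Ripk1 (1.22), the kinase at the TNF receptor. Birc2 lost its call in edgeR (adjusted p = 0.0705), and Traf3 was at 0.00. Of the 10 IKK genes and upstream kinases 2 were called, both higher, with a median of 0.03, and with the block 3 were called higher and 1 lower (Tab1, -0.28; DESeq2, adjusted p = 0.0180). Map3k14, the kinase NIK that starts Nfkb2 processing, rose from 212 ± 37.4 to 441 ± 89.4 normalized counts (1.06 ± 0.19; DESeq2, adjusted p = 4.89e-07), and Tbk1 rose by 0.47, while Map3k7, encoding TAK1, was at -0.09.

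The other inhibitors and ubiquitin editors gave 4 called of 14 tested (3 in edgeR), all higher, with a median of 0.08. Rnf31 (1.25), the catalytic HOIP of the linear ubiquitin ligase, and its partner Rbck1 (0.53) were among them, beside Tnip2 (0.50), which binds A20, and N4bp1 (0.44), and Tax1bp1 was at 0.10. Of 20 known target genes 12 were under the filter, among them Il6, Cxcl1, Nos2 and Lcn2. Of the 8 tested 5 were called (4 in edgeR), all higher. Without Icam1, which passed the filter only through the IFNγ libraries, 4 of 7 were called (3 in edgeR), with a median of 1.34. With the block DESeq2 called 5 of these 7 higher and 1 lower (Ptgs2, -1.16, adjusted p = 0.0269), and edgeR did not call Ptgs2 (adjusted p = 0.0523). Csf1, the macrophage growth factor, rose from 625 ± 128 to 4107 ± 205 normalized counts (2.72 ± 0.17; DESeq2, adjusted p = 4.36e-54), and Tnfaip2 (5.56) and the chemokine Ccl2 (1.93) rose too. The adhesion molecule Icam1 was at 7.02. Sod2, the mitochondrial superoxide dismutase and a much-used NF-κB target, was at -0.09 with 3616 ± 297 normalized counts in Ctr and 3398 ± 301 in IFNγ libraries.

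In Dexa-treated OPCs 1 gene of these lists was called, where 0.547% of all genes were called (DESeq2). It was Bcl2l1, encoding the survival protein BCL-XL, at 0.57 (DESeq2, adjusted p = 0.0028). With 0.128% of all genes called, edgeR did not call it (adjusted p = 0.184). The median over the 8 target genes tested was 0.23, and the medians of the receptors, adaptors, kinases and inhibitors lay between -0.04 and 0.03, against -0.01 over all genes.

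**Figure D4:**
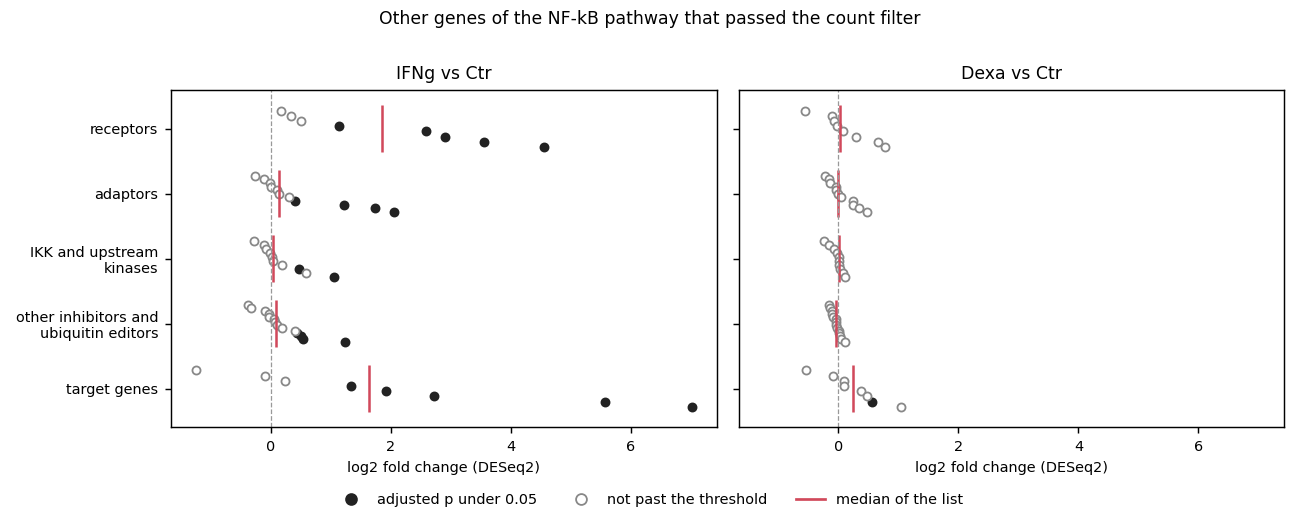
Log2 fold changes of the genes tested in 5 lists (receptors, adaptors, kinases, other inhibitors and target genes) for IFNγ and Dexa against Ctr. Each point is a gene, filled where its adjusted p is under 0.05 in DESeq2, and bars are list medians. The receptor and target lists spread upward under IFNγ, with medians of 1.86 and 1.63 that include the genes that passed the filter only through IFNγ. Under Dexa the target median is 0.23 and the others lie between -0.04 and 0.03.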

How the data were processed

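RNA of 12 cultures (4 Ctr, 4 Dexa, 4 IFNγ) was sequenced as paired ends from stranded total-RNA libraries. The authors quantified filtered reads with Salmon 0.8.2 and deposited 1 table per library with estimated counts and TPM of 141862 transcripts. Their processing notes also name STAR and DESeq2, without versions. The deposited DESeq2 tables hold the authors' own fold changes and p-values and were not used. Transcripts were joined to GENCODE M21 genes (GRCm38) and estimated counts were summed per gene and rounded, and TPM was summed for levels. Dexa replicate 3 ends after 47855 transcripts.

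DESeq2 1.42.0 (R 4.3.3, Wald test, no covariate, no shrinkage, Benjamini-Hochberg adjusted p under 0.05) was fitted to the 17919 genes that reached 10 counts in 4 or more of 11 libraries. Alternatives were edgeR 4.0.16 (quasi-likelihood), limma 3.58.1 on log2(TPM + 0.5), other filters, TMM factors, leaving out libraries, and blocks of replicate number or title prefix. Deviations of same-numbered libraries correlated at r = 0.414 to 0.746, others at -0.646 to 0.526, and these ranges overlapped. The labels put replicates in different litters. Pairing by number is an inference from these, and a litter shared by equal numbers was not tested. No libraries of a group agreed within sampling noise. On simulated counts DESeq2 called more unchanged genes than its threshold allows, and edgeR did not. Intervals on reads cover counting error only.

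The 10 genes, the lists and the tests were chosen with earlier results of these data known. All 10 genes were named. In each list the called genes with the largest changes (up to 4) and the uncalled gene with the highest mean were named, with the 3 genes most correlated with each of the 3 members that changed most. Il6, Tnf and other genes under the filter were named as examples, after their values were seen. Tab1, Ptgs2 and the marker C1ql1 were also named after their values were seen. Promoters were scanned for the κB consensus, and other motifs are not reported here.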

Additional observations from a re-analysis of the deposited data

Results flagged for a closer look

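One value stood apart from its group. The single Bcl3 read in Ctr replicate 4, 1.09 normalized counts where the other 3 Ctr libraries had none, was the highest of 4 by a gap equal to the whole range of the group. A lone read among libraries at 0 always meets this rule, and 23 groups of 4 were looked at, of which chance alone marks about 1 in 20.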

How the results depend on the processing

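The number of the 10 genes called in IFNγ against Ctr was 2, and it was 4 with the replicate block in DESeq2 or in edgeR and with the title prefix as a block. Leaving out a replicate or a library gave 1 (Bcl3, without replicate number 2) to 4. In Dexa against Ctr the number was 0, and 1 (Nfkbia) with the replicate block in DESeq2, with the title prefix as a block and without Ctr replicate 2, so that the range over libraries left out was 0 to 1. Over 12 libraries it was 0, and 1 with the block in DESeq2 or edgeR. The genes of the pathway lists called in Dexa against Ctr numbered 1, against 2 with the replicate block, 0 in edgeR, 2 with no filter on low counts, 2 with the filter at 3 libraries, 3 with the title prefix as a block and 0 in limma on TPM, and 0 to 2 with replicates left out, 0 without Dexa replicate 1 or 2. Nfkbia-201 held 64.5% of Nfkbia reads in Ctr but 39.8% of its TPM. Beyond the calls given with each gene, the replicate block in the fit of all 11 libraries changed no other call of a member. The cause of these shifts was not tested. limma on TPM moved the median of all genes to 0.11 in IFNγ against Ctr, so values on that scale are relative to it. Leaving out replicate numbers, leaving out genes that passed the filter only through IFNγ and counting protein-coding transcripts only were chosen after seeing the data. Among 30 pairs of gene and comparison, 16 took both signs over the alternatives, among them Nfkb2 in IFNγ against Ctr (-0.53 to 0.50) and Tnfaip3 in Dexa against Ctr (-0.59 to 0.24), and none of these 16 was called in any alternative. No called value changed sign. At 12 to 20 reads, and none in 6 other libraries, depth limits Bcl3 most.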
